A study of Mus musculus with 12 samples.

Results

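The comparison set 6 libraries of injured cortex against 6 of the opposite cortex, pooled over both mouse genotypes of the series, and used all 12 of its 12 libraries. Every mouse received CCI, controlled cortical impact, where a piston blow to bared cortex serves as a brain trauma model, and tissue was taken at 2 hr from the struck side (ipsilateral) and from the other side (contralateral). In the group called wt the sample labels give the genotype CX3CR1cre-er/+, and in the group called cKO they give the same allele together with STING fl/fl, floxed copies of the gene for the cytosolic DNA sensor adaptor STING. All libraries therefore carried a Cre allele at Cx3cr1, which drives Cre in microglia and monocytes. The series description lists the floxed animals with CX3CR1cre/+, and neither source mentions tamoxifen. Each genotype had 3 libraries a side. No sham-operated or uninjured tissue is among them, the labels give no age, and they leave unsaid whether each library is its own animal. The p values therefore rest on library-to-library spread, which may be technical in part.

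A blow to the cortex sets off transcription on several scales. Within minutes to hours, immediate early genes, cytokines and chemokines rise steeply from low levels. Abundant transcripts of neurons and glia, such as those for the cytoskeleton, the synapse and energy metabolism, often have long-lived mRNA, whose level moves slowly. Few replicates resolve the first kind of change, and the second needs a small standard error.

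Library totals were 20779210 to 33567194 counts, except for 7958931 counts in cKO ipsilateral library 3, which also stood apart on the second principal component. On the third component the most extreme was wt contralateral library 3, which also had the lowest quality weight of the 12 (0.367). The first component, 30.7% of the variance, separated the sides completely. Mitochondrially encoded genes took 4.27% to 5.45% of counts in contralateral and 5.31% to 8.16% in ipsilateral libraries. Tmem173, the floxed gene, was lower in cKO than in wt by a mean log2 difference of -1.11 over the sides (exact two-sided permutation p = 0.01, where 0.005 is the smallest possible), and edgeR's adjusted p was 0.428. The permutation took the sides as independent, which does not hold if both sides came from the same animals. Between sides Tmem173 was at 0.762 to 3.18 CPM (counts scaled to library size) contralaterally and 1.05 to 3.69 CPM ipsilaterally (log2 0.21 ± 0.24, adjusted p = 0.64). Cx3cr1, the Cre locus, was at a median of 21.5 CPM contralaterally and 19.5 CPM ipsilaterally (log2 -0.17 ± 0.08, adjusted p = 0.24).

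Pooling the genotypes resolved many small changes, and most of the falls. Of 16836 genes tested with edgeR's quasi-likelihood test and genotype as covariate, 1507 (8.95%) passed a Benjamini-Hochberg adjusted p of 0.05. The ipsilateral side was higher for 1082 genes (6.43%) and lower for 425 (2.52%). With 3 libraries a side, wt alone gave 460 rises (2.73%) and 31 falls (0.184%), and cKO alone 431 rises (2.56%) and 30 falls (0.178%). Neither genotype alone called 530 of the pooled rises and 379 of the pooled falls. In the other direction, 16 genes called in wt alone and 9 called in cKO alone did not pass the pooled test.

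The gain lay in small differences. Under 1.5-fold there were 589 rises and 403 falls, from 1.5- to 2-fold 210 rises and 14 falls, and from 2-fold upward 283 rises and 8 falls. The median log2 difference was 0.53 for a rise and -0.20 for a fall, the latter a loss of 13.1% of the contralateral level. The middle 50% of the falls, between their quartiles, lay between -0.28 and -0.17. The median standard error of a gene's log2 difference was 0.0886 in the pooled fit, against 0.126 in wt and 0.129 in cKO alone. The smallest difference called was 0.13 in the pooled fit, against 0.23 in wt and 0.22 in cKO.

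**Figure D1:**
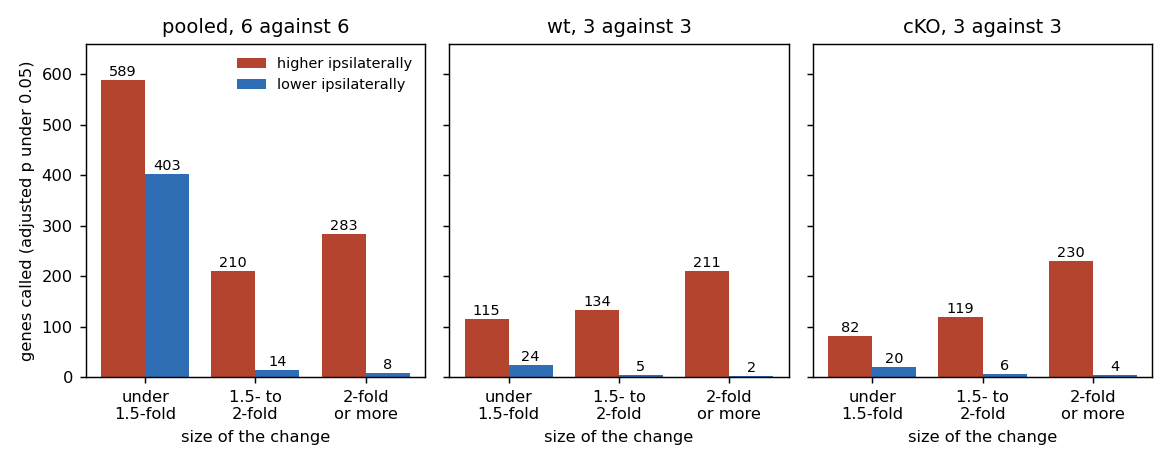
Number of genes called (vertical axis) by size of the change (horizontal axis) in the pooled comparison and in each genotype alone, with rises in red and falls in blue. Under 1.5-fold the pooled comparison called 403 falls, against 24 in wt and 20 in cKO.

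The libraries of both genotypes were also compared directly. All 6 ipsilateral libraries lay above all 6 contralateral ones for 605 genes (3.59% of those tested) and below them for 275 (1.63%), and 578 of these rises and 198 of these falls were called. The side difference did not differ between the genotypes past the test for any gene (0 of 16836 with edgeR, with 381 genes or 2.26% at an unadjusted p under 0.05; 0 with DESeq2, with 315). Without the low-count filter edgeR called 72 genes for that difference. The sign was the same in both genotypes for all 1507 called genes, which the pooled test in part requires.

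Which falls were called depended on single libraries. There were 184 to 221 falls without any one of cKO contralateral library 1 (184), wt ipsilateral library 3 (195), wt ipsilateral library 2 (199), cKO ipsilateral library 2 (221) or wt contralateral library 2 (221), and 725 without wt contralateral library 3. A core of 130 falls (30.6%) and 727 rises (67.2%) was called whichever 1 of the 12 libraries was left out, and genes named below belong to this core unless stated. All 425 falls stayed below 0 in every one of these fits. These fits reuse all but 1 of the libraries that chose the genes, so the sign could hardly change. Scaling by library totals gave 932 rises and 769 falls, so that falls made up 45.2% of calls in place of 28.2%, and removing trends with GC content and length gave 1313 and 922 (41.3% falls). On TPM, a length-scaled share of each library, 278 rises and 160 falls passed limma's test and the median of all genes shifted from -0.01 to -0.11. A single RNA, Bc1, was at 10548 TPM in cKO ipsilateral library 3 and at 83028 to 167036 TPM in the other libraries. Its share moves those of all other genes, and its part in the TPM results was not tested. Of 109 called genes named here, 36 passed on TPM and 104 had the same sign there. Against a threshold of 1.2-fold, an alternative chosen after the data were seen, 433 rises but 12 falls passed.

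Called falls were concentrated among abundant transcripts. Of 2165 genes with a mean over 100 CPM, 8.73% fell and 5.40% rose. Of 7701 genes at 10 to 100 CPM 2.47% fell, of 4630 at 1 to 10 CPM 0.886%, and of 2340 under 1 CPM 0.214%. Called falls were larger where levels were lower, with a median log2 difference of -0.18 over 100 CPM, -0.22 at 10 to 100 CPM and -0.47 at 1 to 10 CPM. The median of all genes, called or not, was -0.06, -0.02 and 0.05 in these classes. A gene with a larger standard error passes only with a larger difference. Sizes and shares of calls therefore also depend on what the test resolves at each level, and that part was not tested. The falls had a median level of 87.2 CPM against 15.7 CPM for all genes tested and 14.5 CPM for rises. They also lay in longer genes, with a median span of 29.6 kb and 10 exons against 21.6 kb and 8 exons for all genes, and 15.3 kb and 7 exons for rises. Rises of 2-fold or more were the reverse, at a median of 2.67 CPM, 9.34 kb and 5 exons.

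**Figure D2:**
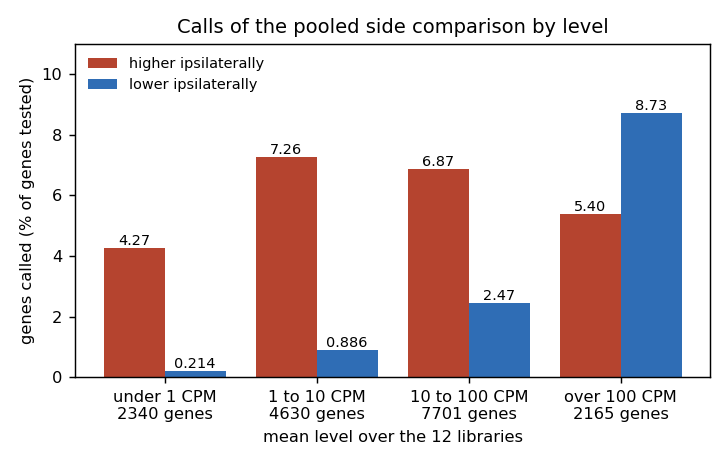
Share of tested genes called higher (red) or lower (blue) ipsilaterally (vertical axis, percent) by mean level over the 12 libraries (horizontal axis). Above 100 CPM falls (8.73%) outnumbered rises (5.40%), and in the other 3 classes rises outnumbered falls.

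Among the 15 largest falls at a mean of at least 1 CPM, the first were of low or uneven level. Gm13610, antisense to Prrc2b, was at 0 to 4.86 CPM contralaterally, and ipsilaterally at 0 in 5 libraries and 0.373 CPM in 1, with overlap. Fam220a, whose symbol stands for a pair of identifiers, was at 0.0426 to 16.4 CPM contralaterally and 0.252 to 1.03 CPM ipsilaterally for the one called (ENSMUSG00000083012), a call lost without wt ipsilateral library 2 (adjusted p = 0.0551). The other (ENSMUSG00000118332), which overlaps it on the same strand, was not called (log2 0.20 ± 0.10, adjusted p = 0.245). It was at 24.3 to 45.0 CPM contralaterally and 37.7 to 46.6 CPM ipsilaterally. Among contralateral libraries, the called identifier was highest and the other lowest in wt library 1, and the reverse held in cKO library 2. How reads were divided between the pair was not tested, and a fall of the whole locus is not shown. Alx4, a homeobox transcription factor, fell from a median of 2.57 to 1.34 CPM without overlap (log2 -0.95 ± 0.19, adjusted p = 0.00387).

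Tmem119 (ENSMUSG00000054675, mm10 chromosome 5 at 113793729 to 113800516), a membrane protein that marks homeostatic microglia, had 19.4, 24.1 and 27.0 CPM as lowest, median and highest contralateral value and 12.5, 14 and 16.9 CPM ipsilaterally. The sides did not overlap, and the log2 difference was -0.70 ± 0.09 (adjusted p = 6.68e-05), with -0.71 in wt and -0.69 in cKO. Of 25 homeostatic microglia markers it was the one fall of the core. C1qb, a complement subunit made by microglia, was the one rise of the core (0.30 ± 0.07, adjusted p = 0.0155, from a median of 46.7 to 57.9 CPM, with overlap). The 25 had a median log2 difference of 0.05, against -0.01 for all genes tested, and their summed level was 800 to 858 CPM contralaterally and 788 to 1004 CPM ipsilaterally. In bulk tissue fewer cells of a type and less RNA per cell cannot be told apart, here and for every gene below.

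Bmf, a BH3-only activator of apoptosis on chromosome 2 at 118528757 to 118549687, was at 3.62, 4.89 and 6.04 CPM contralaterally and at 1.87, 2.36 and 3.30 CPM ipsilaterally. All 6 injured libraries were below all 6 others, and the level fell by 47.9% (log2 -0.94 ± 0.16, adjusted p = 0.00103). Ccn2, a matrix-associated growth factor gene and a target of the YAP coactivator, fell by 47.6% (-0.93 ± 0.16, adjusted p = 0.00144), from a median of 44.4 to 20.5 CPM with slight overlap. Of 12 measured Wnt and YAP target genes it was the 1 called lower (8.33%, against 2.52% of all genes). In that list 3 were called higher (25%, against 6.43% of all genes). The counts of Ccn2 can include reads of Gm15270, which lies on the opposite strand, because no source tells whether counting used strand. The same limit holds for Chst15, Cul1, Far2, Galnt16, Gnb5, Got2, Slc16a9, Snap47, Stab1, Svop, Syn2, Tuba1b, Tuba4a, Tubb4b and Uqcrc2 among the falls named here, and for Arf6, Ddit3, Ftl1, Glul, Grin2c, Hes5, Idi1, Ikbke, Kif5b, Lss, Nrarp and Slc7a10 among the rises. Abhd15, a regulator of lipolysis that overlaps 3 genes of the opposite strand, was called in neither genotype alone but fell by 50.7% pooled (-1.02 ± 0.19, adjusted p = 0.00253). It went from 1.14 to 1.87 CPM contralaterally to 0.613 to 0.901 CPM ipsilaterally, without overlap. The monocarboxylate transporter Slc16a9 fell by 39.6% (-0.73 ± 0.15, adjusted p = 0.00564). Of 10 border macrophage markers 1 fell and 1 rose, against 2.52% of all genes lower and 6.43% higher. The scavenger receptor Stab1 fell by 29.4% (-0.50 ± 0.10, adjusted p = 0.00283), and the chemokine Ccl24 rose from a median of 0.407 to 2.32 CPM (2.21 ± 0.32, adjusted p = 0.000219).

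The falls that only the pooling resolved were small, with a median log2 difference of -0.20. Of these 379 falls 170 had sides that did not overlap, and 93 (24.5%) belonged to the core. Those named here had the smallest p, which favours sides without overlap. Chst15 (chromosome 7 at 132235780 to 132317228), a chondroitin sulfate sulfotransferase, was at 40.7, 45.0 and 47.6 CPM contralaterally and 30.3, 35.2 and 37.5 CPM ipsilaterally (log2 -0.36 ± 0.07, adjusted p = 0.00194). Kif3b (chromosome 2 at 153291413 to 153333390), a motor subunit of kinesin-2, was at 94.6, 97.0 and 98.2 CPM against 79.8, 84.6 and 88.7 CPM (-0.20 ± 0.04, adjusted p = 0.00373). Eno2 (chromosome 6 at 124760053 to 124769673), the neuronal enolase of glycolysis, was at 977, 1055 and 1085 CPM against 898, 926 and 935 CPM (-0.19 ± 0.04, adjusted p = 0.00483). In each of these 3 genes the lowest contralateral library was above the highest ipsilateral one, although the loss was 22.3% for Chst15 and 12.2% for Eno2.

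Other falls that neither genotype called alone were of similar size. Napb, a cofactor that helps to take apart spent SNARE complexes, went from a median of 587 to 499 CPM (-0.22 ± 0.04, adjusted p = 0.00466). Scamp5, a secretory carrier protein of synaptic vesicles, went from 516 to 451 CPM (-0.19 ± 0.04), and the vesicle protein Svop from 248 to 210 CPM (-0.23 ± 0.05). Gnb5, a G protein beta subunit, went from a median of 136 to 118 CPM, the cullin Cul1, a ubiquitin ligase scaffold, fell by 13.1%, and Rragb, a small GTPase of amino acid sensing, by 16.6%. Galnt16, a glycosyltransferase, fell by 14.8%, and Far2, a fatty acyl-CoA reductase, by 20.5%. Disp2 and Nrip3 had log2 differences of -0.24 and -0.27. Their adjusted p ranged from 0.00248 for Far2 to 0.00525 for Svop. Of these 10 genes Rragb alone had overlapping sides.

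**Figure D3:**
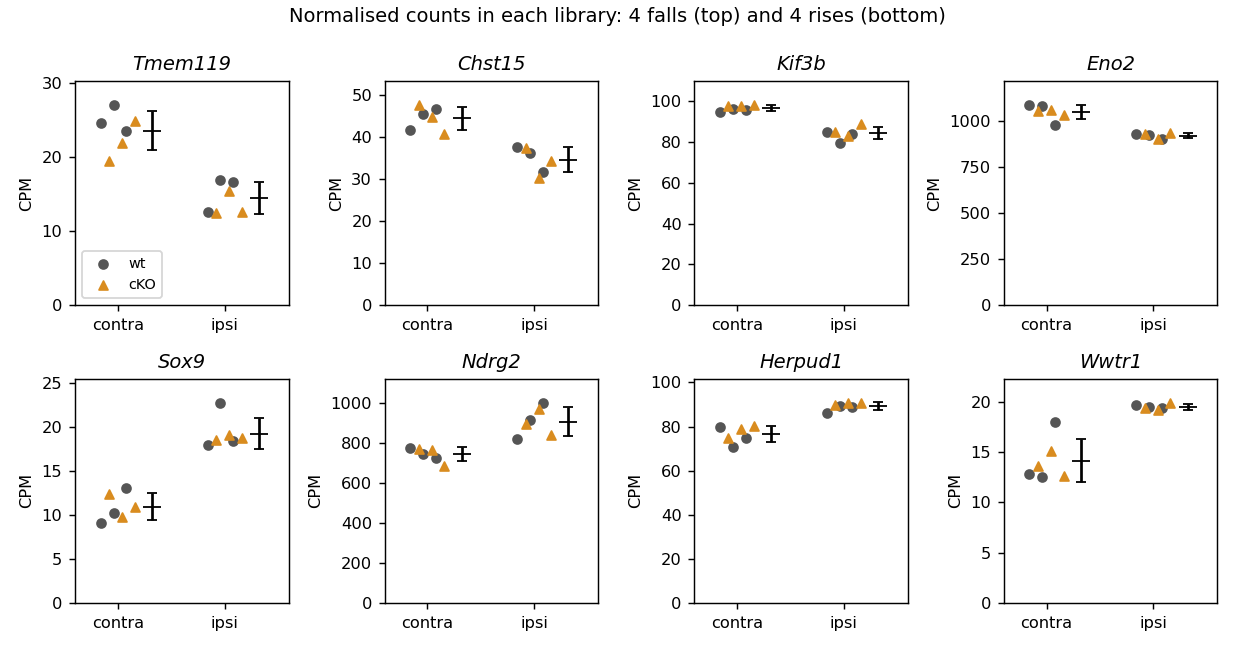
Normalised counts (CPM, vertical axis from 0) of 4 genes that fell (top row) and 4 that rose (bottom row) in each contralateral and ipsilateral library, with wt as grey circles and cKO as orange triangles. Black bars give the mean and SD of the 6 libraries of a side, and for all 8 genes the sides do not overlap.

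Tubulin genes changed in both directions. The family was singled out after its values were seen. Tubulins are the alpha and beta subunits of microtubules, with gamma-tubulin at their origin, and neurons make them in large amounts. Of 17 measured genes 7 fell, 4 rose and 6 were not called. Of all genes 2.52% were called lower (8.73% of those over 100 CPM) and 6.43% higher. In the family 6 of the falls and all 4 rises belonged to the core (without wt contralateral library 3 the falls were 11). Tubb3, the neuronal beta-tubulin, had 348, 406 and 421 CPM contralaterally and 283, 301 and 339 CPM ipsilaterally (log2 -0.38 ± 0.06, adjusted p = 0.000367). Tuba4a had 682, 727 and 760 CPM against 556, 608 and 613 CPM (-0.29 ± 0.04, adjusted p = 0.000311). Neither gene had overlapping sides.

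Among the abundant isotypes Tubb4b (-0.33 ± 0.05), Tubb5 (-0.32 ± 0.05) and Tuba1b (-0.27 ± 0.05) also fell without overlap, and Tubg1, the gamma-tubulin, fell by 16.6% with slight overlap. Tubb4a fell by 14.5% (adjusted p = 0.0173), a call that was lost without cKO contralateral library 1. Tuba1a at -0.12 ± 0.04 and Tubb2a at -0.17 ± 0.05 missed the threshold (adjusted p = 0.0589 and 0.0522). In contrast Tuba1c rose from a median of 5.22 to 16.2 CPM (1.56 ± 0.09, adjusted p = 9.6e-09), Tubb6 from 5.70 to 13.1 CPM (1.14 ± 0.13, adjusted p = 2.56e-05) and Tubb2b from 118 to 147 CPM (0.31 ± 0.06, adjusted p = 0.00285). Tubb1, the tubulin of platelets, was at 0.249 to 1.16 CPM ipsilaterally and at 0 in 5 of the 6 contralateral libraries, too few counts for a fold. Tuba1b (chromosome 15 at 98931425 to 98934565) and Tuba1c (99029891 to 99038110 of the same chromosome) are near-identical neighbours, so RSEM had to divide reads between them and single values of the family are uncertain.

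**Figure D4:**
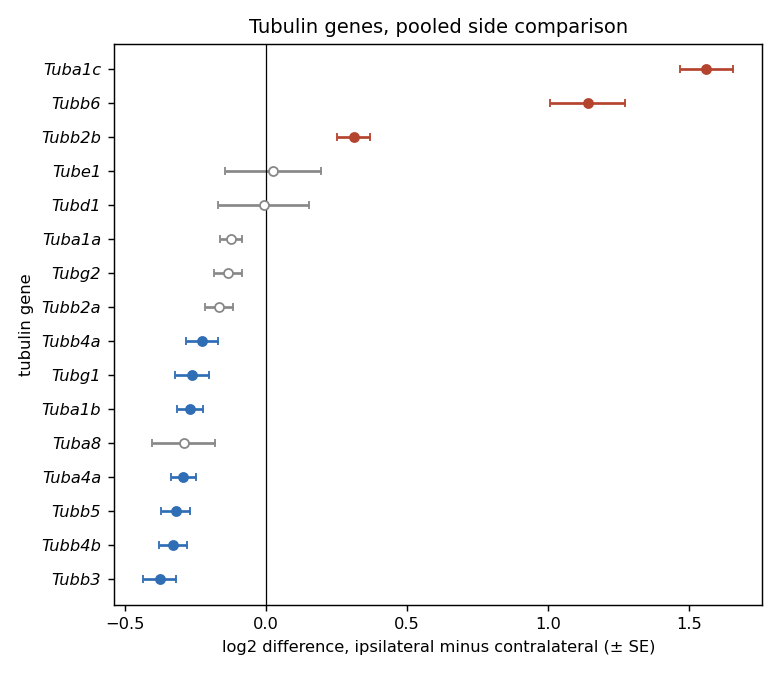
Log2 difference between sides (horizontal axis, with SE) for 16 of the 17 measured tubulin genes (vertical axis), with called rises in red, called falls in blue and genes not called as open grey circles. Tubb1 is left out because of its near-absence contralaterally. Tuba1c, Tubb6 and Tubb2b lie to the right of 0 and 7 called genes between -0.38 and -0.23.

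Further families were chosen after their values were seen, and most members of all but the first were not called. For comparison, 2.52% of all genes and 8.73% of those over 100 CPM were called lower. In the malate-aspartate shuttle, which carries reducing equivalents into mitochondria, all 7 measured genes were below 0 and 6 were called. Got2, the mitochondrial aspartate aminotransferase, went from 283, 316 and 325 CPM to 258, 260 and 274 CPM (-0.25 ± 0.04, adjusted p = 0.00109), Got1, its cytosolic partner, fell by 12.5% and Slc25a12, the exchanger of aspartate and glutamate, by 12.2%. These 3 genes did not overlap between sides and belonged to the core, and the other 3 calls were all lost without any one of cKO contralateral library 1 or 3, cKO ipsilateral library 2, wt contralateral library 1 or 2, or wt ipsilateral library 1 or 2. Of 18 tricarboxylic acid cycle genes 6 were called lower, with Idh3a (-0.18 ± 0.04, adjusted p = 0.00498), a subunit of isocitrate dehydrogenase, in the core. Without single libraries 1 to 3 of the 6 were called, except without cKO contralateral library 2, cKO ipsilateral library 3 or wt contralateral library 3.

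The vacuolar proton pump, which acidifies lysosomes and loads synaptic vesicles, had 4 of 21 genes called lower and 1 higher (7 lower without wt contralateral library 3). Of all genes 2.52% were called lower and 6.43% higher, and of those over 100 CPM 8.73% and 5.40%. Atp6v1b2 (log2 -0.18 ± 0.04), Atp6v0a1 (-0.18 ± 0.04) and Atp6v0d1 (-0.19 ± 0.05) fell in the core, while Atp6v0e, a minor membrane subunit, rose (0.30 ± 0.07, adjusted p = 0.0161). Of 37 SNARE and SNARE-recycling genes 4 fell and 2 rose (4 rose without wt contralateral library 3), to be set against the same shares. The rises were the larger changes: Stx11, a syntaxin of immune cells, went from a median of 0.182 to 1.83 CPM (3.01 ± 0.36, adjusted p = 3.42e-05) and Snap23 from 6.99 to 10.6 CPM (0.60 ± 0.08, adjusted p = 0.000146). Nsf, the ATPase that recycles SNARE complexes, went from a median of 926 to 819 CPM (-0.17 ± 0.04, adjusted p = 0.00834) without overlap, and the SNARE protein Snap47 (-0.18 ± 0.05) fell with overlap. Dnm1, the neuronal dynamin of endocytosis, fell by 11.5% (adjusted p = 0.00995). Of 38 measured kinesin genes 5 rose, 3 fell and 30 were not called, against 6.43% of all genes higher and 2.52% lower. Kifap3, the partner of Kif3b in kinesin-2, fell (-0.20 ± 0.05, adjusted p = 0.0113), and all 3 heavy chains of kinesin-1 rose: Kif5a from a median of 4207 to 5967 CPM (0.50 ± 0.07, adjusted p = 0.000104), Kif5b (0.45 ± 0.08, adjusted p = 0.00151) and Kif5c (0.22 ± 0.05, adjusted p = 0.015). Kif2a was the fall outside the core (-0.18 ± 0.05, adjusted p = 0.0433).

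The neuronal gene lists gave few single calls. For comparison, all genes over 100 CPM had a median log2 difference of -0.06. Of 27 presynaptic genes 5 were called lower and 1 higher, with a median log2 difference of -0.13 and 21 below 0. The falls were 18.5% of the list, against 2.52% of all genes and 8.73% of those over 100 CPM. Syn2, a synapsin that tethers vesicles, was the member in the core (-0.19 ± 0.04, adjusted p = 0.00586, from 437 to 486 CPM to 397 to 437 CPM), the rise was Rims1, a scaffold of the release site (0.30 ± 0.08, adjusted p = 0.0312, outside the core), and the falls numbered 1 to 3 without cKO contralateral library 1 or 2, any cKO ipsilateral library, wt contralateral library 2, or wt ipsilateral library 2 or 3. In 5 further lists no member fell or rose in the core. Of 26 sodium and calcium channel genes 22 were below 0 (median -0.10), of 14 GABA receptor genes 12 (median -0.09), of 19 interneuron markers 13 (median -0.08), of 22 cortical layer markers 15 (median -0.07) and of 25 postsynaptic genes 12 (median 0.00). Among 22 glutamate receptor genes (median -0.06) the core held a single member, Grin2c, which rose (0.31 ± 0.07, adjusted p = 0.0111) and encodes an NMDA receptor subunit. Among 41 potassium and HCN channel genes (median -0.05) it held Kcna4, a potassium channel, which rose (0.48 ± 0.11, adjusted p = 0.0125).

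Respiratory chain genes were read in a pair of lists. Of 13 mitochondrially encoded genes 12 rose (92.3%, against 6.43% of all genes), with a list median of 0.63, and all 12 were in the core. On TPM 7 of them passed (median 0.47). Of 38 nuclear-encoded subunits 34 were not called, 3 fell and 1 rose (median -0.04). The falls were 7.89% of the list, against 2.52% of all genes and 8.73% of those over 100 CPM. The nuclear-encoded rise was Cox6a1, a subunit of complex IV (0.25 ± 0.07, adjusted p = 0.0391), outside the core. Uqcrc2, a structural protein of complex III, was the one nuclear-encoded member in the core and fell (-0.19 ± 0.04, adjusted p = 0.00833, from a median of 197 to 172 CPM). Nuclear falls numbered 3 in all and 11 without wt contralateral library 3. Without any one of cKO contralateral library 1 or 3, cKO ipsilateral library 2 or 3, wt contralateral library 1 or 2, or wt ipsilateral library 1 or 2, Uqcrc2 was the only one. With mitochondrial genes left out before scaling 400 falls were called, which included 398 of the 425 (93.6%).

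Meningeal and fibroblast markers were lower as a list. Of 19 members 18 were below 0, with a median of -0.42, and their summed level was 1037 to 1470 CPM contralaterally and 727 to 1182 CPM ipsilaterally. The pooled test called 6 lower (31.6%, against 2.52% of all genes) and none higher. Slc6a13, a GABA and taurine transporter of leptomeninges, was the fall in the core (-0.55 ± 0.13, adjusted p = 0.0157, from a median of 12.6 to 8.79 CPM). Ptgds, the prostaglandin D synthase of meninges and oligodendrocytes, fell from a median of 937 to 688 CPM (-0.43 ± 0.12, adjusted p = 0.0305). Ptgds made up most of the list's summed level, whose medians were 1296 CPM contralaterally and 948 CPM ipsilaterally. The collagen gene Col3a1 (-0.45 ± 0.13, adjusted p = 0.0391) and the small proteoglycan gene Ogn (-0.44 ± 0.12, adjusted p = 0.0364) were called as well. The sides overlapped in all 6 called members, and 1 or 2 were called without any one of cKO contralateral library 2 or 3, cKO ipsilateral library 1 or 3, wt contralateral library 1 or 2, or wt ipsilateral library 1 or 2. How much membrane came with each piece of cortex was not tested.

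**Figure D5:**
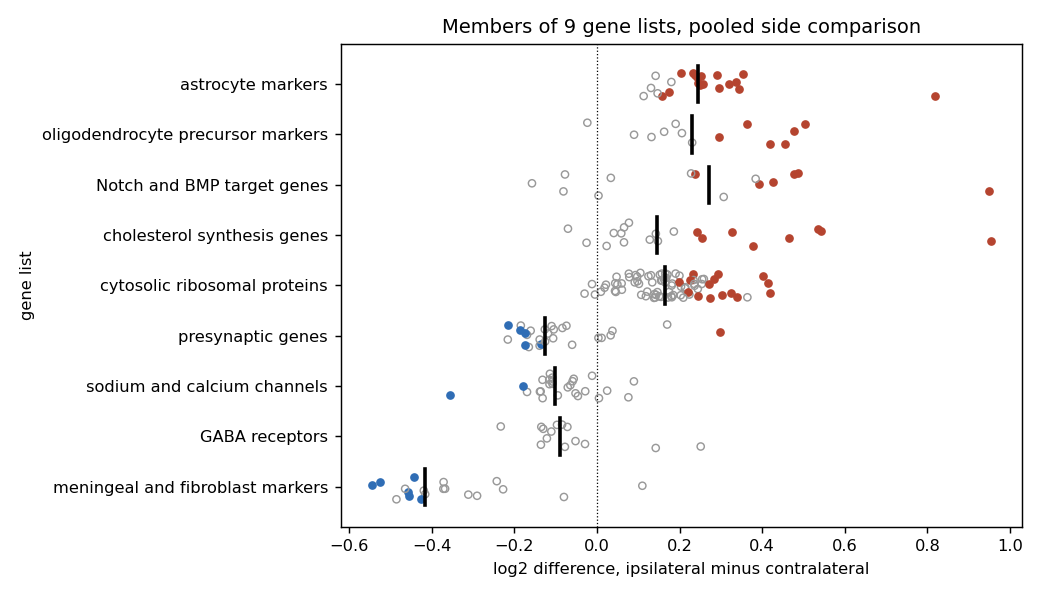
Log2 difference between sides (horizontal axis) of each measured member of 9 gene lists (vertical axis), with called rises as red, called falls as blue and members not called as open grey circles, and the list median as a black bar. Medians run from 0.27 for Notch and BMP target genes to -0.42 for meningeal and fibroblast markers.

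Modest rises were frequent among astrocyte markers. Of 22 astrocyte markers 17 rose and none fell (77.3% against 6.43% of all genes), with a median of 0.24. Alone, wt called 8 of them and cKO 1, and 12 of the 17 were in the core. Sox9 (chromosome 11 at 112782224 to 112787760), a transcription factor of astrocytes, had 9.11, 10.5 and 13.1 CPM contralaterally and 17.9, 18.6 and 22.7 CPM ipsilaterally (0.82 ± 0.09, adjusted p = 2.24e-05). The other rises were under 1.5-fold. Ntsr2, the astrocytic neurotensin receptor, had 80.4, 93.9 and 98.5 CPM against 107, 117 and 129 CPM (0.35 ± 0.06, adjusted p = 0.00104). The amino acid exchanger Slc7a10 rose by 26.2% and the bicarbonate cotransporter Slc4a4 by 26.9%. Among members chosen after their values were seen, the glutamate transporter Slc1a3 rose by 18.3% (adjusted p = 0.00552), the glutamine synthetase Glul by 17.6% (adjusted p = 0.00755) and the potassium channel Kcnj10 by 22.2% (adjusted p = 0.011). Ndrg2, which is strongly expressed in astrocytes and is not on the list, had 684, 755 and 774 CPM against 820, 907 and 1002 CPM (0.29 ± 0.05, adjusted p = 0.00258), without overlap. The summed level of the 22 markers was 8648 to 9945 CPM contralaterally and 10052 to 11709 CPM ipsilaterally. On TPM 1 of the 22 passed, with a list median of 0.10.

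Oligodendrocyte precursor markers also rose. Of 13 measured 6 were higher (46.2%, against 6.43% of all genes) and none lower (median 0.23). Alone, wt called 0 and cKO 1 higher, and 5 of the 6 were in the core. Cacng4, an AMPA receptor auxiliary subunit, went from a median of 25.5 to 31.6 CPM without overlap (0.29 ± 0.05, adjusted p = 0.002). Sox10, a transcription factor of the lineage, rose by 37.0% (adjusted p = 0.00448), C1ql1, a secreted C1q-like protein, by 39.1% (adjusted p = 0.00454) and Ptprz1, a receptor phosphatase that astrocytes share, by 33.7% (adjusted p = 0.00733). On TPM no member passed (median 0.12). Of 18 myelin genes Mbp, the myelin basic protein gene, was the single call (0.49 ± 0.11, adjusted p = 0.00898). That is 5.56% of the list, near the 6.43% of all genes called higher. The list's other 17 members did not pass, and its median was 0.07.

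Targets of Notch and of BMP and TGF-beta signalling, which direct glial fate, had 6 of 14 members higher and none lower (median 0.27). The rises were 42.9% of the list, against 6.43% of all genes, and 5 of them were in the core. Hes5, a repressor induced by Notch, went from 2.47, 3.38 and 4.14 CPM to 5.84, 6.35 and 7.89 CPM (0.95 ± 0.13, adjusted p = 0.000118). Hes1 rose by 39.2% (adjusted p = 0.00512) and Nrarp, a Notch feedback inhibitor, by 34.3% (adjusted p = 0.00623). Smad7, the inhibitory Smad, rose by 40.1% (adjusted p = 0.000289). Nrarp was called in neither genotype alone, and Hes5 and Smad7 in both.

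Cholesterol genes rose in 8 of 20 cases (40%, against 6.43% of all genes) and fell in none (median 0.14), with 5 rises in the core. Insig1, the sterol-regulated anchor of the SREBP pathway, rose by 45.6% (adjusted p = 4.57e-06), Idi1, an isomerase of isoprenoid synthesis, by 45.0% (adjusted p = 0.000622) and Lss, the lanosterol synthase, by 29.9% (adjusted p = 0.000911). Each of these 3 was called in both genotypes alone.

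Stress pathways held both large and small rises. Of 19 unfolded protein and stress response genes 5 rose (26.3%, against 6.43% of all genes) and none fell (median 0.16). The largest was Ppp1r15a, a phosphatase subunit that restores translation, from a median of 26.3 to 76.5 CPM (log2 1.598 ± 0.082, adjusted p = 1.33e-09). Of 18 heat shock genes 6 rose (33.3%) and 1 fell. The rises were all in the core, led by the near-identical Hspa1b (1.88 ± 0.16) and Hspa1a (1.85 ± 0.17). Herpud1, a protein of endoplasmic reticulum degradation, had 70.9, 76.8 and 80.4 CPM against 86.3, 89.5 and 90.8 CPM, without overlap (0.22 ± 0.04, adjusted p = 0.0035), and was called in neither genotype alone. The stress-induced transcription factors Atf4 (0.42 ± 0.06, adjusted p = 0.000141) and Ddit3 (0.36 ± 0.07, adjusted p = 0.005) rose as well. Of 16 hypoxia-inducible genes 4 were called higher (25%) and 1 lower (6.25%, against 2.52% of all genes). Without cKO contralateral library 1 the calls were 2 higher and none lower, and the core held 2 rises. The growth factor Vegfa rose by 71.5% (adjusted p = 9.08e-07) and the vasodilator peptide gene Adm by 82.3% (adjusted p = 0.00203). Of 23 endothelial markers 4 rose, or 17.4% (2 without cKO ipsilateral library 2 or without wt ipsilateral library 3). The core held the VEGF receptor Flt1 (0.44 ± 0.07, adjusted p = 0.000414) and the cadherin Cdh5 (0.32 ± 0.07, adjusted p = 0.0104). Axl, a receptor tyrosine kinase and YAP target, rose by 19.9% (adjusted p = 0.00586).

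Further rises that neither genotype resolved alone included regulators of adhesion and the actin cytoskeleton. Wwtr1 (TAZ, chromosome 3 at 57455649 to 57575910), the paralog of YAP, had 12.5, 13.2 and 18.0 CPM against 19.1, 19.4 and 19.9 CPM (0.46 ± 0.09, adjusted p = 0.00212). The focal adhesion protein Pxn rose by 31.6%, the phosphatase Ptpn12 by 34.6%, the GTPase Arf6 by 26.2% and the atypical GTPase Rnd3 by 45.1%. The kinase gene Mapkapk3, downstream of p38, rose by 65.6% and Rbm15, an RNA-binding protein of the m6A writer complex, by 50.4%. The sides did not overlap in any of these 7 genes, and their adjusted p ranged from 0.00183 for Rbm15 to 0.00323 for Pxn. They were taken from the smallest p, which favours sides without overlap. Of all 530 rises called in neither genotype alone, 132 had sides that did not overlap, and 197 (37.2%) belonged to the core.

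Some myeloid and blood-borne transcripts were also in this class. Tyrobp, a signalling adaptor of microglia and leukocytes, rose from a median of 10.2 to 15.7 CPM (0.56 ± 0.10, adjusted p = 0.00215) and the leukocyte integrin Itgb2 from 4.61 to 6.95 CPM (0.75 ± 0.14, adjusted p = 0.00224). Pf4, a platelet chemokine, rose from a median of 0.571 to 1.88 CPM (1.34 ± 0.25, adjusted p = 0.00242), and Lcn2, an iron-binding protein of neutrophils and reactive astrocytes, from 0.881 to 5.23 CPM (2.27 ± 0.43, adjusted p = 0.00285). Lcn2 ranged up to 7.54 CPM contralaterally, above the lowest ipsilateral library at 3.11 CPM. All 14 measured neutrophil markers were called higher (against 6.43% of all genes), but only 1 of them was called in neither genotype alone. Their summed level was 7.67 to 13.7 CPM contralaterally and 21.3 to 87.9 CPM ipsilaterally. Of 11 red cell and platelet transcripts 9 rose, 2 of them called in neither genotype alone, with sums of 64.5 to 309 CPM against 666 to 2186 CPM. The part of blood in these rises was not tested. Ftl1, the ferritin light chain, rose by 26.0% (adjusted p = 0.00211).

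Other lists gave isolated calls or calls that rested on single libraries. Of 28 interferon-inducible genes 5 rose (17.9%, against 6.43% of all genes). Among them was Irf9, a subunit of the interferon-activated complex ISGF3 (0.38 ± 0.09, adjusted p = 0.015). Of 13 STING pathway genes 1 was called higher (7.69%, near the 6.43% of all genes). It was the kinase gene Ikbke (0.96 ± 0.23, adjusted p = 0.0138, with overlapping sides). The list had 3 rises without wt contralateral library 3 and 4 without wt ipsilateral library 1. Of 82 cytosolic ribosomal protein genes 15 rose (18.3%) and none fell (median 0.17), with Rpl41 (0.40 ± 0.08, adjusted p = 0.00329) among the 2 in the core. That count was 34 without wt ipsilateral library 1 and 2 to 9 without any one of the other libraries, apart from wt contralateral libraries 1 and 2, at 15 each. It was 5 with scaling by library totals and 0 on TPM. Among 332 numbered zinc finger genes, a large family of repressors, 11 were called higher (3.31%) and 8 lower (2.41%), against 6.43% and 2.52% of all genes (median -0.02). Of these, 5 rises and 1 fall were in the core.

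Start-site windows were searched for motifs as a description, with no test between classes. Windows from 250 bases before to 50 after the start, from RefSeq on GRCm38.p6, were matched by symbol for 12131 of the genes tested, and 1 window a gene was searched on both strands. The AP-1 motif TGANTCA was in 13.9% of 202 windows of genes that rose 2-fold or more, 9.49% of 158 for rises of 1.5- to 2-fold, 3.49% of 459 for rises under 1.5-fold, 5.03% of 318 for falls and 4.97% of all. The motif TATAAA followed the same order of rises, at 22.8%, 13.3% and 10.2%, with 7.86% for falls and 7.35% for all. The palindromic CRE motif TGACGTCA was in 2.97% to 4.43% of windows in every class of calls and in 3.12% of all. The CArG box was in 1.49%, 3.17% and 1.53% of the windows of large, middle and small rises, 0.314% for falls and 165 of all 12131, and the NF-kB site in 8.42%, 6.96%, 3.92%, 2.20% and 2.63%. Windows of the largest rises had a median GC content of 55.3%, against 62.7% for rises under 1.5-fold and 60.7% for all, which by itself changes how often such letters occur. These matches describe letters in a window and show no binding.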

How the data were processed

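Deposited per-gene tables were used. Trim Galore 0.6.4, STAR 2.7.1a, RSEM 1.2.28, DESeq2 1.36.0 and the build mm10 are named per the submitters' processing notes; annotation and strand setting are not given in the sources used here. The authors deposited RSEM estimated counts, rounded here to whole numbers, and TPM values (length-scaled shares of a library). Gene identifiers were matched to GENCODE M21 (99.5% of 55487). The tools were DESeq2 1.42.0, limma 3.58.1 and edgeR 4.0.16 under R 4.3.3. Genes were filtered with filterByExpr (minimum count 10, minimum total 15), scaled by TMM and tested by edgeR's quasi-likelihood method with terms for genotype and side. P values were Benjamini-Hochberg adjusted over all 16836 genes kept. Effects within a genotype came from a model of 4 groups. Ranges over libraries are lowest, median and highest CPM.

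The comparison and the 38 gene lists were chosen with earlier results of these data known. Named genes were the 15 largest falls and 6 largest rises at a mean of at least 1 CPM, the 15 falls and 15 rises with the smallest p that neither genotype called, and up to 4 called genes per list; not all are printed, and others are said to be chosen after their values were seen. Simulated counts with known changes (50 genes of at least 10 CPM a fold size, 16633 genes in all) were recovered in 10% of cases at 1.15-fold, 52% at 1.25-fold and 100% at 1.5-fold with 6 libraries a side, against 4%, 22% and 84% with 3, with 7 false calls among 16433 unchanged genes. Alternatives were other scalings, filters, tests and models, each library left out, and removal of GC and length trends (smoothing span 0.3). For TPM, limma was run on log2(TPM + 1).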

Additional observations from a re-analysis of the deposited data

Results flagged for a closer look

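For 228 sets of 6 libraries, 1 per side for each gene named in the text, the gap between the most extreme library and the next was compared with the range of the set, and 12 exceeded the 95% limit for 6 values; chance alone flags about 1 in 20 sets. In wt contralateral library 3 the levels of Atp6v0a1 (587 CPM, others 625 to 642), Got2 (283 CPM, others 315 to 325) and Scamp5 (492 CPM, others 513 to 518) were the lowest of their side, and that of Rnd3 (9.43 CPM, others 7.24 to 7.67) was the highest. In cKO ipsilateral library 3 Dnm1 was highest at 1458 CPM, against 1314 to 1355 CPM, and Ikbke lowest at 0.498 CPM, against 0.961 to 1.358 CPM. In wt ipsilateral library 2 Idi1 was lowest at 56.7 CPM, against 65.7 to 71.5 CPM, and Sox9 highest at 22.7 CPM, against 17.9 to 19.1 CPM. Flt1 was highest in wt ipsilateral library 3, at 96.0 CPM against 76.0 to 79.95 CPM. Tubb1 was at 0.0346 CPM in wt contralateral library 2 and at 0 in the other contralateral libraries. Gm13610 was at 0.373 CPM in cKO ipsilateral library 3 and at 0 in the other ipsilateral libraries. Stx11 was lowest in wt ipsilateral library 1, at 0.901 CPM against 1.74 to 2.49 CPM. The calls of these 12 genes held with the library in question left out.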

How the results depend on the processing

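Library totals gave 769 falls, DESeq2 745, GC and length correction 922, and leaving out both cKO ipsilateral library 3 and wt contralateral library 3 gave 666. limma-voom with quality weights called 2670 genes (1628 higher, 1042 lower), limma on TPM 438 (278 and 160) and the 1.2-fold threshold 445 (433 and 12). No low-count filter gave 1522 rises and 424 falls. Leaving out 1 library gave 184 to 725 falls. On TPM the median of all genes shifted to -0.11 on the log2 scale, and 411 of 412 tested falls stayed below 0. In all other settings all tested falls did. The same libraries chose these genes, so a kept sign was likely in advance. The falls that neither genotype called alone were 685 with library totals and 730 with GC and length correction. The difference of side effects gave 72 calls without the low-count filter; the cause was not tested in any of these cases. Of 109 called genes named in the text, 104 to 109 kept their call under the other scalings, filters, models and count tests, 102 to 106 with 1 library left out, and 36 on TPM.

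Whether equal replicate numbers mark one animal is not stated. They were not taken as pairs, since no correlation of same-numbered libraries over all genes tested was above 0.1. That cutoff does not settle whether they are pairs. After group means were removed, same-numbered libraries correlated at -0.002, 0.094 and 0.046 in wt and at 0.071, 0.092 and 0.057 in cKO. Over genes of at least 10 CPM the values were -0.301, 0.463 and -0.001 in wt and 0.248, 0.311 and 0.235 in cKO. Own numbers were the best match for all 3 cKO pairs but 1 wt pair. With the replicate block 1731 genes were called (1222 higher, 509 lower), including 375 of the 425 falls, and the difference of side effects gave 0. Called falls at 1 to 10 CPM had a median of -0.47, against -0.18 over 100 CPM, sizes that depend on what the test resolves at each level.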
